A study of Mus musculus with 73 samples.

Results

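The comparison described here sets extraembryonic ectoderm (ExE) that had lost the H3K9 methyltransferases G9a and Glp against ExE that had lost Eed, a core subunit of Polycomb repressive complex 2 (PRC2). It uses the 8 ExE libraries titled G9a-Glp and the 10 titled Eed, out of 72 RNA libraries in the series, with 7 wild-type ExE libraries of the same cross as a reference level only. The members were chosen by title and genotype, not by any measured value. Genes were limited to the 29557 autosomal genes of the 30546 in the deposited table.

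All 25 libraries came from embryos of BDF1 mothers and CAST fathers, made by injecting CAST sperm into BDF1 oocytes, and were collected at embryonic day 6.5. The knockout zygotes received Cas9 mRNA with several guide RNAs against different exons of each targeted gene, Ehmt2 (G9a) and Ehmt1 (Glp) together in the G9a-Glp group and Eed alone in the Eed group. Blastocysts were grown on in CD-1 females, so the surrounding maternal tissue was not knocked out. Each library is the ExE of a single embryo, about 300 to 600 cells, and the alleles made by Cas9 in each embryo are not given in the sources used here. The G9a-Glp group holds 5 females and 3 males, the Eed group 4 females and 6 males, and the wild type 3 females and 4 males. Because the cross ran in a single direction here, maternal means BDF1 and paternal means CAST for every gene, and strain and parent of origin cannot be told apart for a gene that is not already known to be imprinted.

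ExE is the proximal part of the early mouse conceptus that gives rise to the chorion and the placental trophoblast. G9a and Glp act as a heterodimer that places mono- and dimethylation on lysine 9 of histone H3, a mark of silent chromatin, and they are best known for silencing germline genes. PRC2 places H3K27 trimethylation and holds developmental regulators such as homeobox genes silent. Canonical imprints are set by DNA methylation in the germline. Noncanonical imprints are carried from the oocyte by H3K27 methylation, silence the maternal allele, and persist mainly in extraembryonic tissue; in the Kcnq1 domain, the long noncoding RNA Kcnq1ot1 silences a set of genes on the paternal chromosome.

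Reads per library ranged from 1829541 to 3637331 in G9a-Glp, from 2116969 to 3976031 in Eed and from 2685835 to 3053690 in wild type. Genes with a read numbered 13751 to 18423 in G9a-Glp, 14760 to 16665 in Eed and 13500 to 13907 in wild type. G9a-Glp embryo 7 stood apart with 18423, the next highest of its group having 14731, and results that rest on it are given without it. Levels are given as CPM, the count scaled to the library total, lowest, median and highest within a group. Differences are log2 fold changes of G9a-Glp minus Eed from edgeR's quasi-likelihood test, with the standard error and a Benjamini-Hochberg adjusted p over all autosomal genes tested, and a gene is called at an adjusted p under 0.05. These p-values measure the spread between single embryos. In bulk tissue, fewer cells of a type and less RNA per cell cannot be told apart.

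The targeted genes were low in the groups labelled as their knockouts. Eed (chromosome 7, 89954654 to 89981419) was at 3.87, 7.60 and 17.4 CPM in Eed embryos, at 144, 177 and 220 CPM in G9a-Glp and at 103, 218 and 248 CPM in wild type, with no overlap between the knockouts (log2 fold change 4.54 ± 0.23 SE, edgeR adjusted p = 4.59e-12). Ehmt2 (chromosome 17, 34898466 to 34914051) was at 1.65, 3.30 and 7.15 CPM in G9a-Glp and at 7.11, 26.4 and 33.2 CPM in Eed (-2.55 ± 0.29, edgeR adjusted p = 6e-07). Ehmt1 (chromosome 2, 24790769 to 24919643) fell less, from 17.1, 33.9 and 42.6 CPM in Eed to 4.40, 12.5 and 26.1 CPM in G9a-Glp (-1.07 ± 0.24, edgeR adjusted p = 0.00136). For both Ehmt genes the highest G9a-Glp embryo overlapped the lowest Eed embryo. Wild type was at 4.33, 15.4 and 23.3 CPM for Ehmt2 and at 15.3, 34.6 and 40.6 CPM for Ehmt1. Both ranges overlapped G9a-Glp, and the wild-type median of Ehmt2 was below that of Eed. RNA left from a cut gene does not show whether protein was made.

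Over the whole table, 9606 autosomal genes were tested for total reads. Of these, 1285 (13.4%) were called higher in G9a-Glp and 1668 (17.4%) higher in Eed. Calls with no overlap between the 2 groups were fewer and leaned further towards Eed, with 147 genes (1.53%) higher in G9a-Glp and 448 (4.66%) higher in Eed. Scaling by library totals alone gave 882 genes higher in G9a-Glp and 1805 higher in Eed, so the share of calls that were higher in G9a-Glp fell from 43.5% to 32.8%. The wild-type level, used only as a reference, lay nearer to G9a-Glp than to Eed for 1360 (81.5%) of the 1668 genes higher in Eed and for 716 (55.7%) of the 1285 genes higher in G9a-Glp, against 5909 (61.5%) of all genes tested.

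In G9a-Glp ExE, Wfdc15a and Asz1, both on the germline list, were high in every embryo; Wfdc15a was at or near 0 and Asz1 low in Eed and wild-type ExE. In Eed ExE, the homeobox gene Barx1, the T-box gene Tbx15, the retinoic acid binding protein gene Crabp1 and the hormone genes Pyy and Rln1 were detected in every embryo and were low or at 0 in G9a-Glp, Barx1 and Tbx15 being on the developmental list. The promoters of Wfdc15a, Asz1 and Barx1 are shown because these genes carried the largest called differences of the germline and developmental lists that had an entry in the RefSeq table used (GRCm38.p6, 250 bases before to 50 after the start, 5′ to 3′ on the gene's strand, CpG dinucleotides in capitals).
Wfdc15a, minus strand, chr2:164200068-164200367: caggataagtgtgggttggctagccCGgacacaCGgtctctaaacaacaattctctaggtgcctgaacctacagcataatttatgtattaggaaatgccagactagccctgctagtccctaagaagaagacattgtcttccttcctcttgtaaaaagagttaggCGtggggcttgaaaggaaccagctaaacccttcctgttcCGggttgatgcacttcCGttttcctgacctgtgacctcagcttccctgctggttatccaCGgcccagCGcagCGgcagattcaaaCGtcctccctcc
Asz1, minus strand, chr6:18109012-18109311: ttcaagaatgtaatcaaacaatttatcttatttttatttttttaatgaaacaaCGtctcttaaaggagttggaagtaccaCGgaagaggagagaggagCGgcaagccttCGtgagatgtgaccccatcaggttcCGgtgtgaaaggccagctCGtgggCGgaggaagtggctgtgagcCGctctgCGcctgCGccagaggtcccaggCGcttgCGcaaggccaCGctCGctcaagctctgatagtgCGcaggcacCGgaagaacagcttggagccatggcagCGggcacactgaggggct
Barx1, plus strand, chr13:48662786-48663085: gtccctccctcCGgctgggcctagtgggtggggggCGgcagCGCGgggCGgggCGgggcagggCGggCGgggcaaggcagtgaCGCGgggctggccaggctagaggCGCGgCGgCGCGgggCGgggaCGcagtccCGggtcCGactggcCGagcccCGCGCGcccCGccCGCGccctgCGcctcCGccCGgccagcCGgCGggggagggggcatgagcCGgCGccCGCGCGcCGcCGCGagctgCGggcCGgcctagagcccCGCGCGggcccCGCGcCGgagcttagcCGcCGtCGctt
The Wfdc15a promoter holds 9 CpG dinucleotides with a GC content of 50.7%, the Asz1 promoter 17 with 54.3%, and the Barx1 promoter 50 with 84.7%. The median over all 27025 promoters of the table was 7, with quartiles of 3 and 21. Over the 7280 promoters found for the genes tested it was 22, with quartiles of 14 and 29, so Wfdc15a and Asz1 lay below that median. Neither the E-box CACGTG nor the E2F-type motif TCCCGC was found on either strand of these 3 windows. CACGTG occurs in 7.24% and TCCCGC in 20.02% of all promoters of this length in the table, and in 10.8% and 37.5% of those of the genes tested.

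Wfdc15a (chromosome 2, 164198872 to 164200117), a gene of the whey acidic protein family, was at 30.7, 44.7 and 119 CPM in G9a-Glp and at 0, 0.325 and 1.42 CPM in Eed (7.51 ± 0.48, edgeR adjusted p = 1.31e-10), with wild type at 0 to 1.43 CPM. Asz1 (chromosome 6, 18050964 to 18109061), which acts in piRNA-directed transposon silencing in germ cells, was at 180, 225 and 308 CPM in G9a-Glp and at 1.18, 6.51 and 13.3 CPM in Eed (5.16 ± 0.26, edgeR adjusted p = 3.62e-12). Wild-type ExE held 0.334 to 5.24 CPM of Asz1, so the lowest G9a-Glp embryo was above every embryo of both other groups. C8b, a gene of the complement membrane attack complex, had a median of 24.8 CPM in G9a-Glp, 0.436 CPM in Eed and 0 in wild type (4.81 ± 0.42, edgeR adjusted p = 1.62e-08). Klb, the co-receptor of endocrine fibroblast growth factors, had medians of 32.1, 0.732 and 1.97 CPM in the same order (5.09 ± 0.35, edgeR adjusted p = 4.08e-10). The ion channel gene Trpv1 had medians of 9.86 and 0 CPM in G9a-Glp and Eed, the protease gene Prss45 13.7 and 0.126 CPM, and Timm8a2 9.83 and 0 CPM. Prss45 was not silent in wild type, at 1.00 to 8.56 CPM. Ptprt and its antisense gene Ptprtos overlap and both read a median of 28.5 CPM in G9a-Glp. Without strand, they count as 1 signal. Wdr20rt, a retrocopy whose reads may be shared with its parent gene and which is therefore uncertain, had 441 reads in the 8 G9a-Glp libraries and 1 in the 10 Eed libraries, a ratio of pooled CPM of 611 with a 95% exact interval of 109 to 24184 that covers counting error only.

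Among the genes with the largest differences towards Eed, Barx1 (chromosome 13, 48663036 to 48666507) was at 26.1, 45.1 and 68.8 CPM in Eed and at 0, 0.425 and 1.49 CPM in G9a-Glp (-6.20 ± 0.33, edgeR adjusted p = 5.81e-12), with wild type at 0 to 1.67 CPM. Crabp1 (chromosome 9, 54764748 to 54773110) was at 43.5, 72.1 and 99.1 CPM in Eed and at 0, 0.799 and 6.01 CPM in G9a-Glp (-5.94 ± 0.36, edgeR adjusted p = 5.65e-11). Both were clear of overlap in all 18 knockout embryos. The genes of this and the preceding paragraph were chosen for that absence of overlap between the knockouts, so it follows from the choice. Pyy, which encodes a gut peptide, had no read in any G9a-Glp embryo and 258 reads in Eed, and the lower 95% exact limit of the ratio of pooled CPM was 50.1, which covers counting error only. Rln1, a relaxin gene, had 1 read against 297, and Osr2, a zinc finger gene of limb and palate development, 1 read against 244. Tbx15 had 3 reads against 315 and, unlike the others, was present in wild-type ExE at 2.15, 2.96 and 7.45 CPM. Its G9a-Glp level of 0 to 0.550 CPM was thus below both Eed (1.99 to 19.4 CPM) and the wild-type range. Rspo4, a Wnt agonist gene, had 2 reads against 265, Plk5 2 against 361, and Dlx4os, which overlaps Dlx4, 2 against 700. Ankrd2 varied most within Eed, from 4.32 to 189 CPM, against 0 to 3.83 CPM in G9a-Glp (-5.95 ± 0.95, edgeR adjusted p = 4.25e-05).

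**Figure D1:**
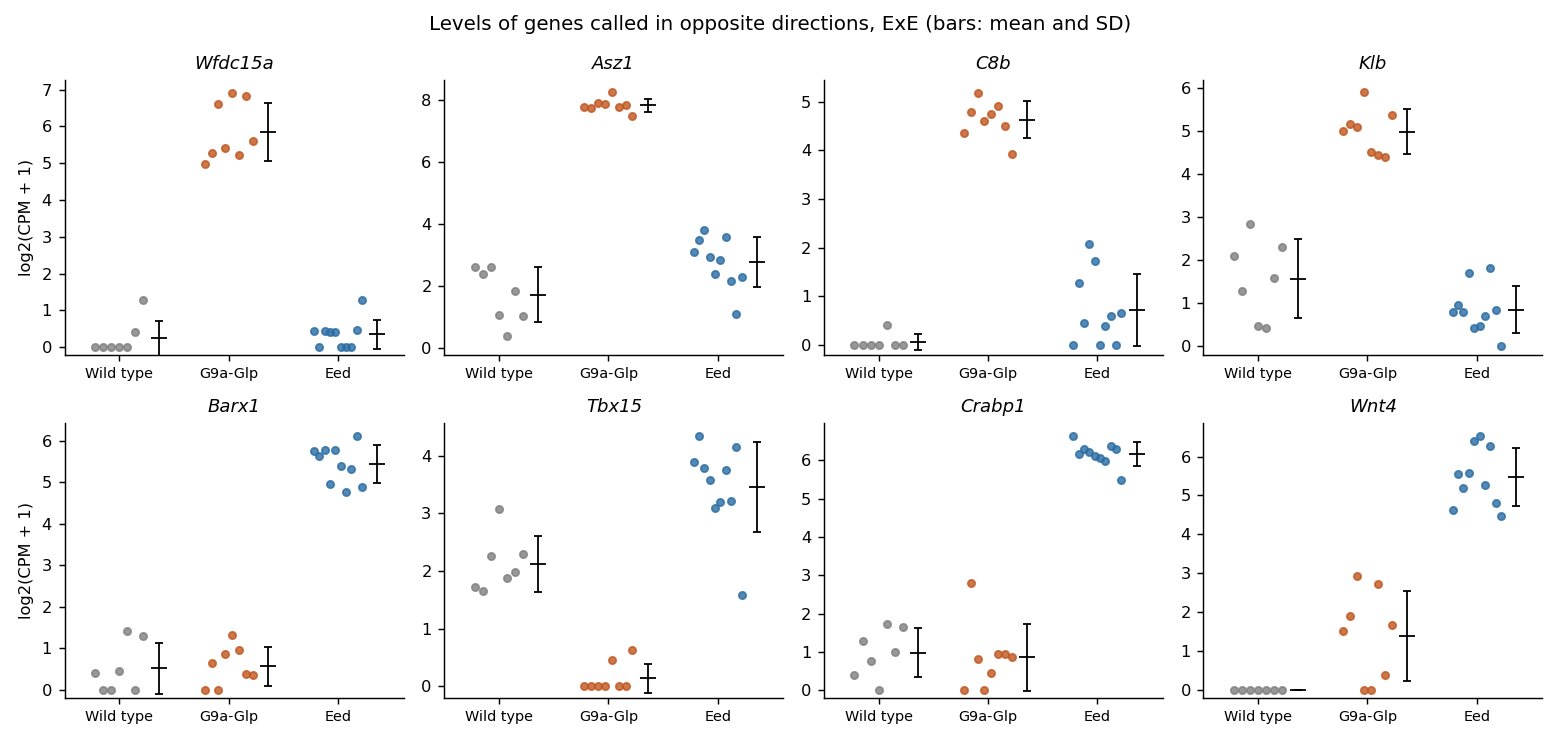
Level of 8 genes in each ExE embryo as log2(CPM + 1), by group (wild type, G9a-Glp, Eed), with 1 point per embryo and bars for mean and SD. Wfdc15a, Asz1, C8b and Klb are high in the 8 G9a-Glp embryos, and Barx1, Tbx15, Crabp1 and Wnt4 in the 10 Eed embryos, with no overlap between the knockouts for any of the 8.

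The plot of 8 genes by embryo shows genes chosen for the absence of overlap between the knockouts, so the separation in it follows from the choice. The gene lists, chosen with earlier results of these data known, gave the following counts, which are to be read against 13.4% and 17.4% of all genes tested. The germline and meiosis list had 65 genes in the table and 33 tested, of which 14 were called higher in G9a-Glp and 7 higher in Eed, with a median log2 fold change of 0.19 against 0.00411 over all genes. Leaving out single embryos gave 11 to 15 and 7 to 8 calls, and scaling by library totals 11 and 8. With no filter on low counts 64 were tested, 15 called higher in G9a-Glp and 12 in Eed, with a median of 0.0668. Of all genes tested that way, 7.51% were called higher in G9a-Glp and 11.4% in Eed. Besides Wfdc15a and Asz1, the genes higher in G9a-Glp held Rpl10l, a ribosomal protein retrogene of meiotic cells, at 730 to 1086 CPM against 71.9 to 219 CPM in Eed and 23.8 to 48.1 CPM in wild type (3.19 ± 0.17, edgeR adjusted p = 4.76e-12). Rpl10l reads may be shared with its parent gene Rpl10 and the value is uncertain for that reason. They also held Nlrp4c, an oocyte gene (2.18 ± 0.18, edgeR adjusted p = 1e-08), and Sohlh2, a transcription factor of early germ cell differentiation (1.93 ± 0.35, edgeR adjusted p = 0.000211). For Sohlh2 the Eed median of 91.9 CPM was itself above the wild-type range of 3.00 to 26.1 CPM, and the G9a-Glp median was 430 CPM. These 3 genes were picked after their values were seen. The 7 germline genes higher in Eed were a separate set, among them Dppa3, a maternal factor that shields methylation in the zygote, at 10.6, 22.9 and 79.1 CPM in Eed against 0 to 3.34 CPM in G9a-Glp (-4.67 ± 0.60, edgeR adjusted p = 3.27e-06). Mei4, needed for meiotic double-strand breaks, was at 6.44 to 23.6 CPM in Eed and 0.386 to 2.78 CPM in G9a-Glp (-3.27 ± 0.36, edgeR adjusted p = 3.74e-07). Sycp1, of the synaptonemal complex, differed by -1.98 ± 0.27 (edgeR adjusted p = 6.1e-06) and Dmc1, the meiotic recombinase, by -2.22 ± 0.30 (edgeR adjusted p = 5.26e-06).

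Of the 142 developmental transcription factors in the table, 18 passed the filter on low counts. Of these, 14 were higher in Eed and 2 in G9a-Glp, and the median log2 fold change was -2.51. A gene at or near 0 in G9a-Glp could pass the filter only through Eed, so the direction among the 18 was partly set by the filter and they do not stand for the list. With no filter 131 of the list were tested, 56 of them called higher in Eed and 4 in G9a-Glp, beside 11.4% and 7.51% of all genes tested that way. Wt1, a regulator of kidney and gonad development, was at 1.56 to 14.0 CPM in Eed and 0 to 0.773 CPM in G9a-Glp (-4.57 ± 0.56, edgeR adjusted p = 1.57e-06). Vax2, a homeobox gene of the ventral eye, was at 9.96 to 27.5 CPM against 0 to 2.24 CPM (-4.28 ± 0.37, edgeR adjusted p = 1.22e-08). Irx2, which was higher in G9a-Glp (1.10 ± 0.28, edgeR adjusted p = 0.00374), was also present in wild type, at 32.0 to 146 CPM. Leaving out single embryos gave 10 to 15 calls higher in Eed. With a minimum of 50 reads 2 genes of the list were tested, and none was called higher in Eed.

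Hox genes were almost silent in G9a-Glp and low in Eed. Of the 35 in the table only Hoxb13 passed the filter on low counts, with 2 reads in G9a-Glp and 167 in Eed (2.75 to 12.1 CPM). Summed over the 35 genes, the level was 0 to 3.73 CPM in G9a-Glp, 9.77 to 47.7 CPM in Eed and 0.358 to 1.79 CPM in wild type, so the lowest Eed embryo was above every embryo of both other groups. Of the Wnt ligands and inhibitors 5 of 28 were tested. Wnt4 was at 21.0, 41.6 and 91.8 CPM in Eed, 0 to 6.57 CPM in G9a-Glp and 0 in wild type (-4.31 ± 0.49, edgeR adjusted p = 5.47e-07). The inhibitor Sfrp1 followed at 14.7 to 27.3 CPM against 0 to 5.47 CPM (-3.71 ± 0.54, edgeR adjusted p = 1.39e-05), whereas Wnt6 was higher in G9a-Glp (1.42 ± 0.37, edgeR adjusted p = 0.00465), where its median of 9.42 CPM was near the wild-type 10.7 CPM. The 5 clustered protocadherins tested were all gamma-cluster genes with shared exons and shared reads and count as 1 signal. It was higher in Eed (Pcdhga1, -1.93 ± 0.48, edgeR adjusted p = 0.00335), but leaving out any one of Eed embryos 1, 3, 4, 5, 6, 9 or 10 left 1 gene above the filter on low counts, and it was called. With the replicate block 1 of 5 was called, in females alone 1 of 5 and in males alone 0 of 15. The 5 tested were out of 58 clustered protocadherins in the table. Hoxb13, Wnt4, Sfrp1 and these protocadherins, low in G9a-Glp, could pass the filter on low counts only through Eed. Their direction was therefore partly set by the filter, and they do not stand for their lists.

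The maternal share of reads was tested for 9133 autosomal genes with at least 10 reads in 3 or more libraries of each group. It was called higher in G9a-Glp for 121 genes (1.32%) and higher in Eed for 97 (1.06%), far fewer than for total reads. The differences are log2 ratios of maternal to paternal reads, G9a-Glp minus Eed, within the same library. Reads of each allele scaled to the library total were tested as well. Of 9133 genes, maternal-allele reads were higher in G9a-Glp for 869 (9.51%) and in Eed for 903 (9.89%), and paternal-allele reads for 910 (9.96%) and 982 (10.8%). Of the 217 allelic calls among the 9009 genes tested both ways, 122 (56.2%) were also called for total reads, against 27.3% of all genes tested in both.

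At the 6 noncanonical imprinted genes tested, which are mostly silent on the maternal allele in wild-type ExE, the median maternal share was 34.1 to 56.4% in G9a-Glp and 4.50 to 38.4% in Eed, higher in G9a-Glp for each gene. Of the genes of the Kcnq1 domain, which are mostly silent on the paternal allele, Ascl2, Cd81, Phlda2 and Cdkn1c had a larger paternal share in Eed. Of the 6 noncanonical genes tested, the maternal share of 2 was called higher in G9a-Glp and of none higher in Eed. The count rose to 5 without Eed embryo 10 and fell to 1 without other single embryos. It was 0 in females alone and 1 in males alone, where 0.423% and 0.393% of all genes tested were called higher in G9a-Glp. Over 11 Kcnq1-domain genes tested, the maternal share of 4 was called higher in G9a-Glp and of none in Eed, and the count was 4 whichever single embryo was left out.

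Gab1 (chromosome 8, 80764431 to 80880519), which encodes an adaptor of growth factor receptor signalling needed in the placenta, had a maternal share of 50.6, 56.4 and 62.0% in G9a-Glp, 15.1, 32.7 and 59.2% in Eed, and 2.04, 4.78 and 10.9% in wild type. Its share was 56.1% ± 3.35 (SD, n = 8) in G9a-Glp and 31.8% ± 13.9 (SD, n = 10) in Eed. The log2 ratio differed by 1.47 ± 0.26 (edgeR adjusted p = 0.00107), and it lost the call in females alone (edgeR adjusted p = 0.0956). Maternal reads accounted for it, with medians of 220 CPM in G9a-Glp, 68.4 CPM in Eed and 10.5 CPM in wild type (edgeR adjusted p = 0.00354), while paternal reads were 165, 179 and 175 CPM (edgeR adjusted p = 0.593). Eed embryo 4, at 59.2%, lay within the G9a-Glp range and Eed embryo 10, at 48.4%, just below it, while the other 8 Eed embryos were at 34.8% or less.

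Jade1 (chromosome 3, 41555734 to 41616864), a subunit of a histone acetyltransferase complex, had a maternal share of 42.6, 45.8 and 52.8% in G9a-Glp and 17.6, 29.6 and 53.5% in Eed, with a wild-type median of 5.23% (0.90 ± 0.23, edgeR adjusted p = 0.0299). This call was lost without any one of Eed embryos 1, 2, 3, 5 or 9 or G9a-Glp embryos 1, 3 or 9 (edgeR adjusted p from 0.0504 to 0.0595), and with limma (adjusted p = 0.0834), with the replicate block (edgeR adjusted p = 0.138), in females alone (edgeR adjusted p = 0.0579) and in males alone (edgeR adjusted p = 0.542). The other 4 noncanonical genes had higher medians in G9a-Glp and missed the threshold. Smoc1, a matricellular protein gene, had medians of 53.9% and 36.1% (edgeR adjusted p = 0.127), although its maternal-allele reads were higher in G9a-Glp (1.07, edgeR adjusted p = 0.0196). The amino acid transporter gene Slc38a4 had medians of 34.1% and 4.50% with wide ranges, 3.01 to 41.9% and 0 to 38.2% (edgeR adjusted p = 0.0700). The Polycomb-related gene Sfmbt2 had medians of 43.5% and 29.5% (edgeR adjusted p = 0.0824), and the noncoding Platr20 56.2% and 38.4% (edgeR adjusted p = 0.400). Without Eed embryo 10, the adjusted p was 0.0359 for Smoc1 and 0.0157 for Slc38a4; without Eed embryo 4, it was 0.0269 for Slc38a4 and without G9a-Glp embryo 3 it was 0.0186. Sfmbt2 was called without Eed embryo 4 or 10 or G9a-Glp embryo 1 or 10 (edgeR adjusted p from 0.0215 to 0.0484). In total reads Jade1 (0.86 ± 0.17, edgeR adjusted p = 0.000479), Gab1 (0.67 ± 0.16, edgeR adjusted p = 0.00204) and Smoc1 (0.66 ± 0.23, edgeR adjusted p = 0.0322) were higher in G9a-Glp, 3 of 6 tested, 2 when scaled by library totals and 0 in males alone. The Smoc1 call was lost without any one of Eed embryos 1, 2, 8, 9 or 10 or G9a-Glp embryos 2 or 8 (edgeR adjusted p from 0.0506 to 0.112).

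**Figure D2:**
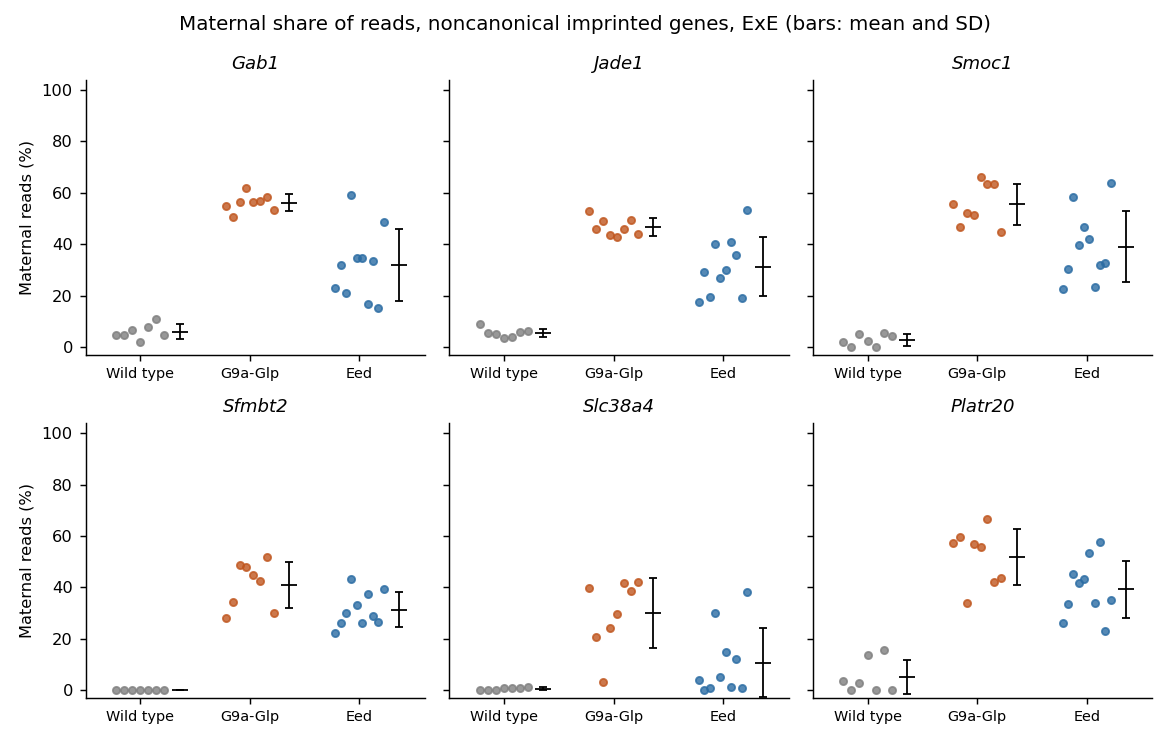
Maternal share of reads (%) at 6 noncanonical imprinted genes, 1 point per embryo with at least 10 reads, by group; bars give mean and SD. G9a-Glp embryos lie at 42.6 to 66.1% for Gab1, Jade1 and Smoc1, while Eed embryos spread from 15.1% to 63.6% for the same genes and wild type lies at or below 10.9%.

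In the plot of maternal shares, the SD was larger in Eed for Gab1, Jade1 and Smoc1. It was smaller in Eed for Sfmbt2, at 6.79 against 9.01 percentage points, and about equal for Slc38a4 (13.4 and 13.6) and Platr20 (11.1 and 10.9). A noncoding gene beside Sfmbt2 and another beside Slc38a4 were called. Gm13261, on chromosome 2 at 10327340 to 10365161, 5.275 kb from Sfmbt2, had a maternal share of 44.1, 62.9 and 70.0% in G9a-Glp, 3.80, 22.0 and 40.4% in Eed and 0 to 1.92% in wild type (2.37 ± 0.28, edgeR adjusted p = 4.52e-06). Gm32885, on chromosome 15 at 97157117 to 97167278, 101.2 kb from Slc38a4, had 39.1, 41.6 and 45.3% in G9a-Glp, 1.01, 4.00 and 14.0% in Eed and 1.99 to 7.0% in wild type (3.98 ± 0.28, edgeR adjusted p = 2.53e-10). Neither overlapped between the knockouts. The shares of Gm32885 rest on the deposited ratio, rounded to whole percents. In total reads it was abundant, at 2361, 2599 and 4669 CPM in G9a-Glp, 881, 1076 and 2689 CPM in Eed and 1904 to 3841 CPM in wild type (1.22 ± 0.26, edgeR adjusted p = 0.000829). Gm32885 was picked after its values were seen.

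In the Kcnq1 domain on chromosome 7, Ascl2 (142966822 to 143008033), a transcription factor that ExE and spongiotrophoblast need, had a maternal share of 85.0, 95.0 and 98.4% in G9a-Glp, 56.3, 69.4 and 94.8% in Eed and 97.6 to 100% in wild type (3.17 ± 0.42, edgeR adjusted p = 1.5e-05). Its paternal reads had medians of 3.00 CPM in G9a-Glp, 81.6 CPM in Eed and 0 in wild type (log2 fold change -3.83, edgeR adjusted p = 2.18e-06), and its maternal reads did not pass the test (-0.48, edgeR adjusted p = 0.473). Cd81, a tetraspanin gene, had 84.7, 92.0 and 100% in G9a-Glp and 58.8, 73.8 and 94.6% in Eed (2.37 ± 0.45, edgeR adjusted p = 0.00188); it overlaps R74862, and limma put its adjusted p at 0.0697. Phlda2, a restrainer of placental growth, had 78.1, 92.8 and 97.1% in G9a-Glp and 65.0, 77.3 and 86.4% in Eed (1.72 ± 0.35, edgeR adjusted p = 0.00434). Its paternal reads had medians of 92.3 and 671 CPM and missed the threshold on their own (edgeR adjusted p = 0.0619). Cdkn1c, a cyclin-dependent kinase inhibitor, had 97.4, 99.2 and 100% against 84.3, 93.7 and 98.5% (3.06 ± 0.59, edgeR adjusted p = 0.00275). These 4 genes made up the calls. Tssc4 (edgeR adjusted p = 0.320) and Kcnq1ot1 itself (edgeR adjusted p = 0.184) were among those that missed the threshold. So was Slc22a18 (edgeR adjusted p = 0.926), which had a similar maternal share in both knockouts. It was at 61.1, 85.3 and 100% in G9a-Glp, 67.1, 79.6 and 94.3% in Eed and 91.4 to 100% in wild type.

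Total reads in the domain were also higher in Eed. Of 11 genes tested 5 were called higher in Eed and none in G9a-Glp, with a median log2 fold change of -0.72. Cdkn1c was at 139, 267 and 653 CPM in Eed, 34.3, 90.1 and 165 CPM in G9a-Glp and 29.5 to 65.0 CPM in wild type (-1.73 ± 0.35, edgeR adjusted p = 0.00062). For Cdkn1c most of the added reads were maternal, with medians of 248 CPM against 89.8 CPM, and the maternal-allele test passed as well (-1.60, edgeR adjusted p = 0.00145). Cd81 was at 151 to 403 CPM in Eed and 64.5 to 145 CPM in G9a-Glp without overlap (-1.26 ± 0.22, edgeR adjusted p = 9.6e-05). The oxysterol-binding protein gene Osbpl5 (-1.87 ± 0.40, edgeR adjusted p = 0.00105) and the decoy receptor genes Tnfrsf23 (-1.54 ± 0.52, edgeR adjusted p = 0.0265) and Tnfrsf22 (-0.69 ± 0.23, edgeR adjusted p = 0.0275) completed the 5. The Tnfrsf23 call was lost without G9a-Glp embryo 4 (edgeR adjusted p = 0.0520) or 10 (edgeR adjusted p = 0.0532), and without the latter 3 genes of the list were called.

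Among the other canonical imprinted genes 26 were tested for allelic share, with 1 called more maternal in G9a-Glp and 2 more maternal in Eed. Of all genes tested, 1.32% and 1.06% were called in these directions. Grb10, an adaptor that restrains insulin and growth factor signalling, had a maternal share of 97.6, 100 and 100% in G9a-Glp and 78.7, 86.7 and 98.3% in Eed (3.94 ± 0.51, edgeR adjusted p = 1.28e-05), and its paternal reads had medians of 0 and 4.29 CPM. Zdbf2, normally read from the paternal allele, had no maternal read in the 3 G9a-Glp libraries with at least 10 reads and 25.9, 44.2 and 56.0% in 10 Eed libraries (edgeR adjusted p = 0.000204); no wild-type library reached 10 reads. H13, which encodes a signal peptide peptidase, was, like Zdbf2, more maternal in Eed, with 45.4, 50.3 and 63.6% in G9a-Glp, 51.6, 72.4 and 75.8% in Eed and 55.6, 65.5 and 75.4% in wild type (-1.02 ± 0.21, edgeR adjusted p = 0.00556). That H13 call was lost in females alone (edgeR adjusted p = 0.0612), in males alone (0.265) and with the replicate block (0.0554). Mest (edgeR adjusted p = 0.175), H19 (edgeR adjusted p = 0.806) and Meg3 (edgeR adjusted p = 0.996) missed the threshold. In total reads 10 of 30 genes of this list were higher in Eed and 1 in G9a-Glp, against 17.4% and 13.4% of all genes tested. The filter on low counts kept these 30 of 54 genes in the table. A gene near 0 in G9a-Glp, such as Dlk1 or Gatm, could pass it only through Eed, so its direction was partly set by the filter. With no filter 52 were tested, 14 called higher in Eed and 2 in G9a-Glp, beside 11.4% and 7.51% of all genes tested that way. Dlk1, a Notch pathway ligand, was at 1.99 to 15.8 CPM in Eed and 0 to 2.24 CPM in G9a-Glp (-3.97 ± 0.59, edgeR adjusted p = 1.8e-05), and the creatine synthesis gene Gatm at 4.42 to 14.8 CPM against 0 to 1.55 CPM (-3.97 ± 0.41, edgeR adjusted p = 1.46e-07). H19 was at 1921 to 5816 CPM in Eed, 1087 to 1975 CPM in G9a-Glp and 1049 to 2144 CPM in wild type (-1.24 ± 0.18, edgeR adjusted p = 1.42e-05), a change in level with no called change in its allelic share. Airn, the noncoding RNA of the Igf2r domain, was close to the threshold (-0.88 ± 0.34, edgeR adjusted p = 0.0505) and was called as higher in Eed without any one of Eed embryos 1, 3, 6 or 9 or G9a-Glp embryos 4, 7 or 9 (edgeR adjusted p from 0.0224 to 0.0499).

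**Figure D3:**
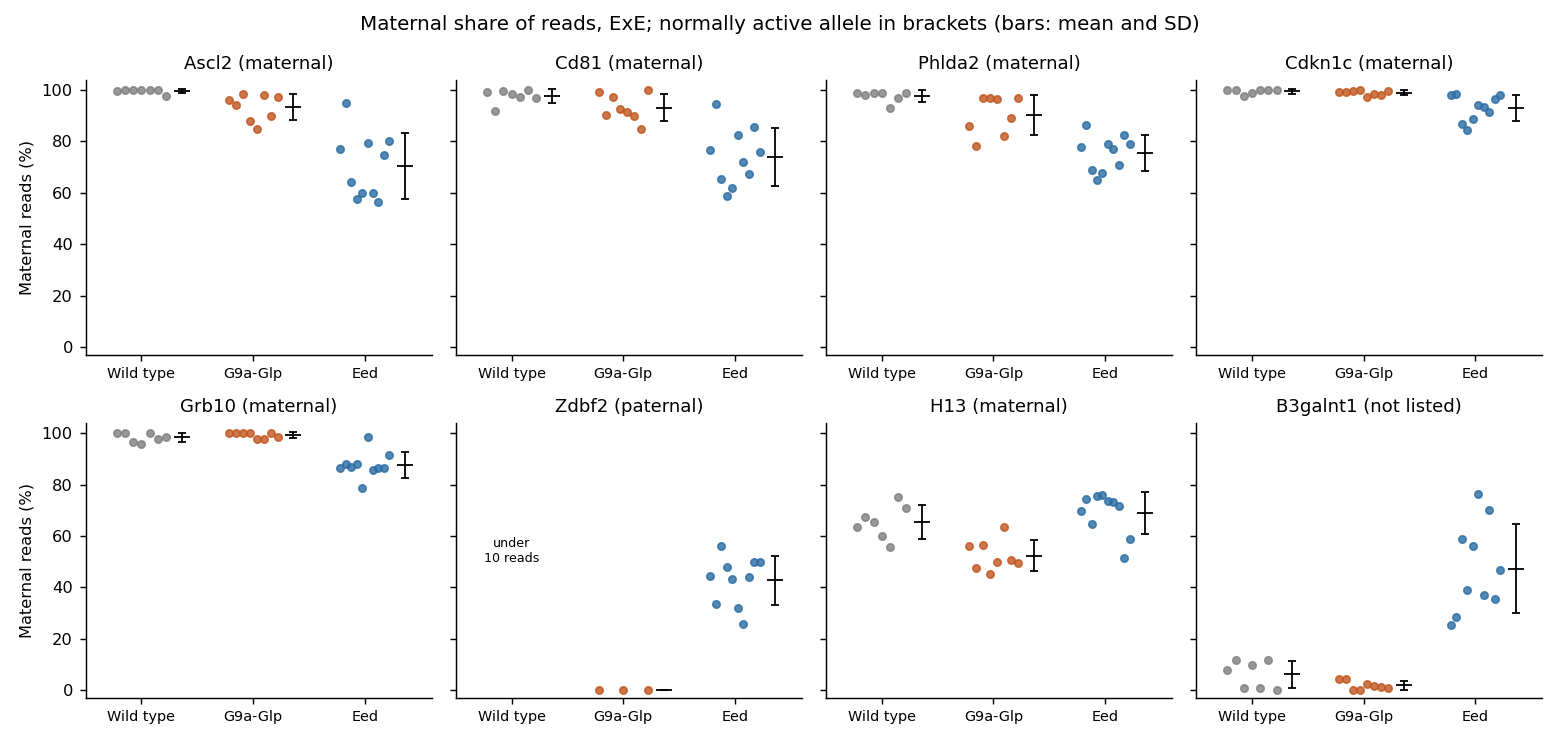
Maternal share of reads (%) at Ascl2, Cd81, Phlda2, Cdkn1c, Grb10, Zdbf2, H13 and B3galnt1, 1 point per embryo with at least 10 reads, by group; bars give mean and SD. For the first 5 genes the Eed embryos lie below the G9a-Glp embryos in median, and for Zdbf2 and B3galnt1 they lie above with no overlap.

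The plot of canonical shares also holds B3galnt1, a glycosyltransferase gene on chromosome 3 (69573919 to 69598960) that is on none of the imprinted lists. Its maternal share was 0, 1.36 and 4.50% in G9a-Glp, 25.2, 42.8 and 76.4% in Eed and 0, 7.64 and 11.9% in wild type (-5.48 ± 0.50, edgeR adjusted p = 5.18e-08). Maternal reads had medians of 0.383 CPM and 18.3 CPM, and paternal reads 36.2 CPM and 21.8 CPM. Steap1, a metalloreductase gene on chromosome 5, had 0, 15.4 and 28.6% in G9a-Glp and 44.8, 60.4 and 78.4% in Eed, with wild type at 14.0 to 33.3% (-3.16 ± 0.40, edgeR adjusted p = 9.7e-06). Pdlim3 (medians of 13.3% and 72.0%), Cyp4f39 (3.85% and 60.0%) and Dok5 (3.85% and 51.9%) showed the same direction on fewer libraries, 4 to 7 in each group. In the opposite direction, the overlapping genes 1700095A21Rik and Gm13247 on chromosome 4, which count as 1 signal, had medians of 66.6% and 67.1% in G9a-Glp and 25.4% and 27.2% in Eed (edgeR adjusted p = 0.000114 and 0.000108). Slco2a1, a prostaglandin transporter gene, had 85.8% in 6 G9a-Glp and 45.2% in 9 Eed libraries (edgeR adjusted p = 0.0330). It lost the call without Eed embryo 5 or 9 or G9a-Glp embryo 4, 7, 8 or 9 (edgeR adjusted p from 0.0532 to 0.0760). Sgpp2, which overlaps the far more abundant Farsb, had 100% in only 4 G9a-Glp libraries with at least 10 reads and 52.4% in 10 Eed libraries (edgeR adjusted p = 0.000124). Its mean in G9a-Glp was 3.28 CPM of maternal and 0.186 CPM of paternal reads.

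Each embryo was then placed by both kinds of imprint at once. The median maternal share of the 6 noncanonical genes was 43.8 to 53.8% in G9a-Glp, 21.1 to 43.8% in Eed and 0.0996 to 5.44% in wild type. The median paternal share of 5 Kcnq1-domain genes (Ascl2, Cd81, Phlda2, Cdkn1c and Tssc4, picked after their values were seen) was 2.87 to 11% in G9a-Glp, 5.20 to 35.0% in Eed and 0 to 2.88% in wild type. These 5 include the 4 genes called for allelic share and leave out Slc22a18, whose share was similar in both knockouts. The 4 female Eed embryos lay at 32.6 to 35.0% and the 6 males at 5.20 to 28.2%; in Ascl2 the females had maternal shares of 56.3 to 64.1% and the males of 60.0 to 94.8%. G9a-Glp females lay at 3.90 to 11% and males at 2.87 to 7.26%. The sex difference in paternal share within Eed was not tested. Among females alone 4 of 10 Kcnq1-domain genes were called more maternal in G9a-Glp, and among males alone 3 of 9; none was called more maternal in Eed, where 0.329% and 0.292% of all genes tested were.

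**Figure D4:**
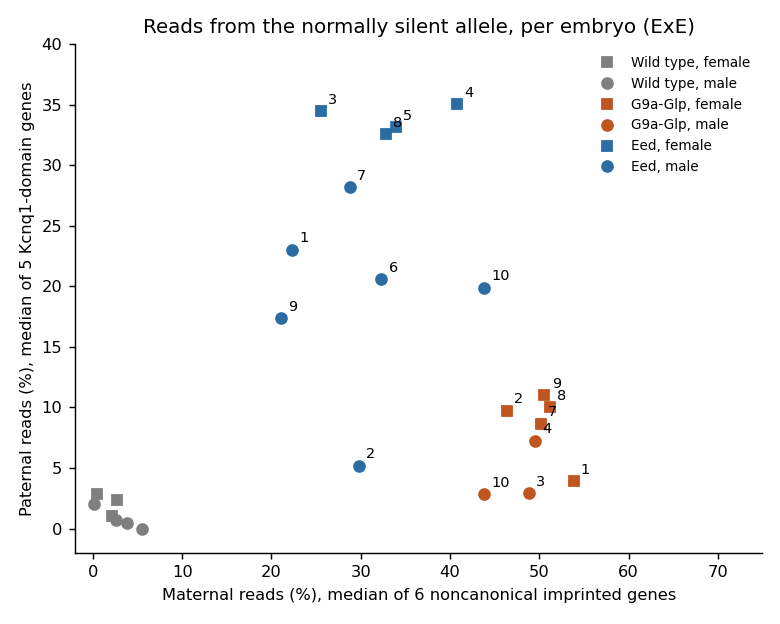
Each ExE embryo by the median maternal share (%) of 6 noncanonical genes (horizontal) and the median paternal share (%) of 5 Kcnq1-domain genes (vertical), both the share of the normally silent allele; squares are females, circles males, and numbers are embryo numbers. Wild type lies near 0 on both axes, G9a-Glp at 43.8 to 53.8% and up to 11%, and Eed at 21.1 to 43.8% and up to 35.0%.

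In the plot of embryos, Eed embryo 2 lay apart from its group on the vertical axis alone, at 5.20%, next to the G9a-Glp embryos, while its horizontal value of 29.8% lay inside the Eed range. Its Eed level was 4.25 CPM, among the lowest of the group.

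The ExE identity genes that were called were all higher in G9a-Glp, where Bmp4 and Eomes lay near wild type. Of 19 tested 11 were called higher in G9a-Glp and none in Eed, against 13.4% and 17.4% of all genes, with a median log2 fold change of 0.85. Bmp4, the signal ExE sends to the epiblast, was at 31.0, 69.2 and 125 CPM in G9a-Glp, 2.34, 10.9 and 37.2 CPM in Eed and a median of 73.7 CPM in wild type (2.38 ± 0.39, edgeR adjusted p = 6.03e-05). Eomes, a T-box factor of trophoblast stem cells, was at 48.8, 105 and 207 CPM against 9.77, 27.5 and 71.2 CPM, with a wild-type median of 107 CPM (1.84 ± 0.29, edgeR adjusted p = 3.4e-05). Sox2 (1.88 ± 0.42, edgeR adjusted p = 0.00143), Cdx2 (1.69 ± 0.49, edgeR adjusted p = 0.0117) and Elf5 (1.05 ± 0.25, edgeR adjusted p = 0.00299), all of the stem cell network, were called too, and Spry4, an inhibitor of FGF signalling, differed by 2.21 ± 0.64 (edgeR adjusted p = 0.0111). None of the 11 was free of overlap between groups. Eed embryos 1, 2 and 9 had the highest Bmp4, Eomes and Cdx2 levels of their group, with Bmp4 at 27.4 to 37.2 CPM against 2.34 to 12.5 CPM in the other 7. The count was 9 to 11 without single embryos, 9 when scaled by library totals, 10 in females alone and 5 in males alone.

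Genes of trophoblast differentiation leaned towards Eed, with 6 of 16 tested higher in Eed, 1 higher in G9a-Glp and a median log2 fold change of -0.69. Dlx3, a homeobox gene of labyrinth development, was at 17.1, 33.4 and 79.3 CPM in Eed, 0.746, 4.96 and 22.9 CPM in G9a-Glp and a median of 4.47 CPM in wild type (-2.35 ± 0.48, edgeR adjusted p = 0.000682). The keratin genes Krt7 (-1.62 ± 0.46, edgeR adjusted p = 0.0102) and Krt19 (-1.09 ± 0.41, edgeR adjusted p = 0.0487) were also higher in Eed, as was the imprinted placental gene Peg10 (-1.24 ± 0.29, edgeR adjusted p = 0.00187). Hopx went the other way (0.99 ± 0.23, edgeR adjusted p = 0.0021). The count towards Eed ranged from 3 to 9 without single embryos and was 1 in males alone. The Krt19 call was lost without any one of Eed embryos 2, 3, 4, 5, 6 or 8 or G9a-Glp embryos 2, 4, 7, 9 or 10 (edgeR adjusted p from 0.0569 to 0.0915).

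**Figure D5:**
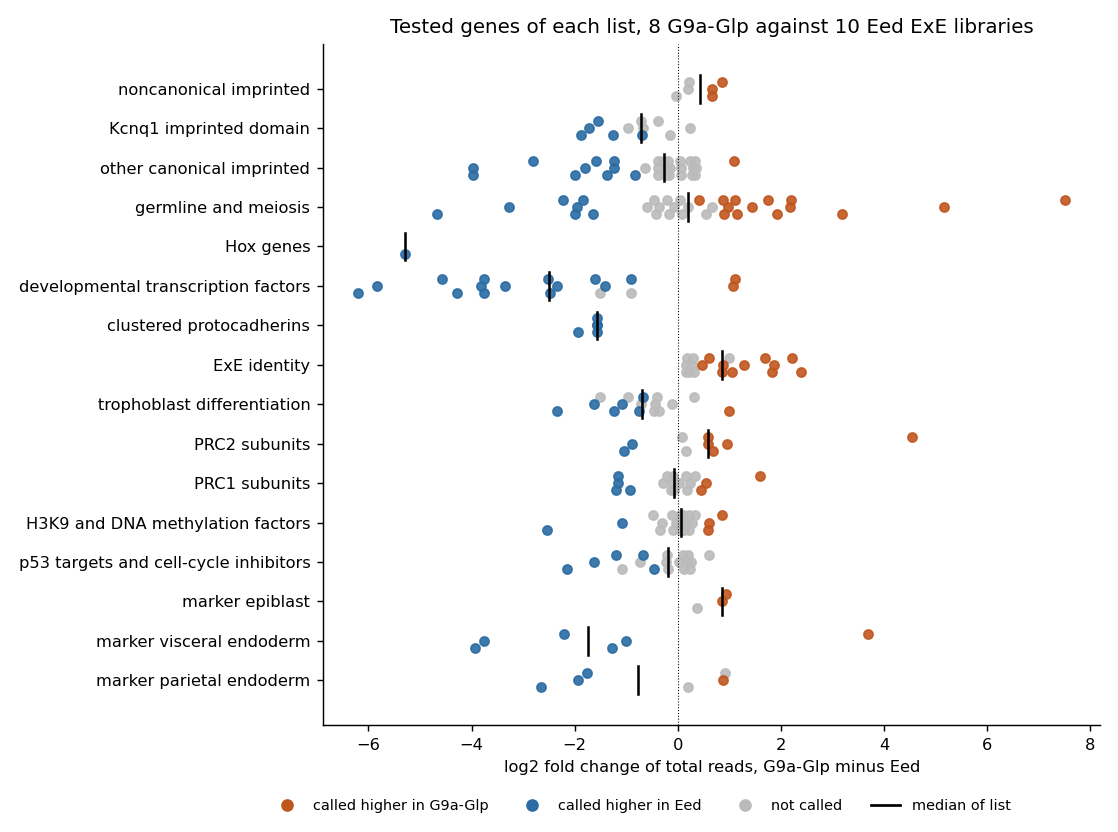
Log2 fold change of total reads, G9a-Glp minus Eed, for each tested gene of 16 lists, 1 point per gene, coloured by whether it was called higher in G9a-Glp, called higher in Eed or not called; the black stroke is the median of the list. The ExE identity list has 11 calls to the right of 0 and none to the left, and the developmental transcription factors 14 to the left and 2 to the right.

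The plot of list counts also shows the chromatin factors, which moved less. Besides Eed itself, 4 of 9 PRC2 subunits tested were higher in G9a-Glp: Jarid2 (0.95 ± 0.13, edgeR adjusted p = 6.84e-06), Mtf2, Aebp2 and Suz12, by 0.58 to 0.95 on the log2 scale. Ezh1 (-1.03 ± 0.23, edgeR adjusted p = 0.00134) and Phf19 (-0.90 ± 0.21, edgeR adjusted p = 0.00204) were higher in Eed, and the main catalytic subunit gene Ezh2 was at 86.4 to 132 CPM in G9a-Glp and 83.1 to 137 CPM in Eed (0.07 ± 0.10, edgeR adjusted p = 0.629). Of 18 PRC1 genes, Scmh1, Yaf2 and Pcgf6 were higher in G9a-Glp and Auts2, Pcgf5, Cbx8 and Cbx2 in Eed. These 3 and 4 of 18 were near the 13.4% and 17.4% of all genes tested, and the list's median log2 fold change was -0.0751. Pcgf5 was at 196 to 601 CPM in Eed and 91.7 to 188 CPM in G9a-Glp (-1.16 ± 0.18, edgeR adjusted p = 3.71e-05). Of 24 factors of H3K9 and DNA methylation, Ehmt1 and Ehmt2 were higher in Eed. The de novo methyltransferase gene Dnmt3b (0.87 ± 0.20, edgeR adjusted p = 0.00162), Mphosph8 and Suv39h2 were higher in G9a-Glp. Those 3 of 24 were near the 13.4% of all genes tested. Dnmt3b was below the wild-type 576 to 1093 CPM in median in both knockouts, at 466 CPM in G9a-Glp and 269 CPM in Eed.

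For 3 of the p53 targets and cell-cycle inhibitors, Cdkn1a, Btg2 and Ccng1, the difference between the knockouts itself differed between female and male embryos. In all embryos 5 of 18 tested were higher in Eed and none in G9a-Glp. In females alone it was 8 of 19 higher in Eed and none in G9a-Glp, and in males alone 4 of 20 higher in G9a-Glp and none in Eed. Of all genes tested, 9.27% were called higher in G9a-Glp and 13.6% in Eed in females alone, and 4.83% and 9.72% in males alone. A test of the sex-by-group term, added after this split was seen, called 7 of 9606 genes (0.0729%), with 706 at an unadjusted p under 0.05. Cdkn1a, the p53-induced inhibitor p21, was at 314 to 590 CPM in the 4 Eed females, 65.0 to 122 CPM in the 6 Eed males, 37.7 to 124 CPM in the 5 G9a-Glp females and 101 to 262 CPM in the 3 G9a-Glp males. Its group difference in females minus that in males was -3.34 ± 0.46 (edgeR adjusted p = 0.00192), and wild-type embryos held 2.96 to 14.0 CPM. Btg2, an antiproliferative p53 target, was at 312 to 454 CPM in Eed females and 76.3 to 184 CPM in Eed males, and at 42.5 to 65.0 CPM and 75.5 to 132 CPM in G9a-Glp females and males (-2.41 ± 0.35, edgeR adjusted p = 0.00286). Ccng1, cyclin G1, was lower in G9a-Glp among females (-1.18, edgeR adjusted p = 0.000196) and higher among males (0.84, edgeR adjusted p = 0.0364), and its overall difference of -0.22 was not called. The serpin gene Serpine2 was at 358 to 465 CPM in Eed females and 135 to 220 CPM in Eed males, against 36.4 to 55.6 CPM and 94.0 to 109 CPM in G9a-Glp (-2.38 ± 0.21, edgeR adjusted p = 1.9e-06). Of the p53 list, the terms of Plk2 (edgeR adjusted p = 0.363) and Sesn2 (edgeR adjusted p = 0.363) did not pass. The 5 genes called in all embryos, Plk2, Btg2, Sesn1, Perp and Cdkn2d, had a negative difference in both sexes, from -3.25 to -0.49 in females and from -1.16 to -0.32 in males.

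Markers of other cell types were measured beside these results. Of the visceral endoderm markers 6 of 20 in the table were tested. Rbp4, Gata4, Dab2, Apoe and Amn were higher in Eed and Afp was higher in G9a-Glp, at 12.9 to 112 CPM against 0.729 to 7.68 CPM (3.69 ± 0.41, edgeR adjusted p = 4.23e-07). Their summed level was 267 to 496 CPM in G9a-Glp, 357 to 1511 CPM in Eed and 230 to 530 CPM in wild type, mostly Apoe. Afp, Ttr, Apoa1 and Amn were taken to define that tissue, and of these Afp and Amn were called, in opposite directions. Ttr, Apoa1, Apob and Hnf4a did not exceed 2.19 CPM in any embryo. Decidua markers summed to 1.37 to 11.97 CPM in G9a-Glp and 12.02 to 50.8 CPM in Eed, with Des and Cryab called. Of 6 parietal endoderm markers tested, Col4a1, Col4a2 and Lamb1 were higher in Eed and Sparc in G9a-Glp. The epiblast marker Pou5f1 did not exceed 0.927 CPM. Of 3 epiblast markers tested, Dnmt3b and L1td1 (0.94 ± 0.22, edgeR adjusted p = 0.00203) were higher in G9a-Glp and 0 in Eed. Epiblast markers summed to 414 to 837 CPM in G9a-Glp, 186 to 534 CPM in Eed and 659 to 1199 CPM in wild type. Of 2 primitive streak and mesoderm markers tested, Pdgfra was higher in Eed (-3.82 ± 0.62, edgeR adjusted p = 5.25e-05). G9a-Glp embryo 8 held 33.8 CPM of Nanog, 17.1 CPM of Fgf5 and 14.4 CPM of Mesp1, the highest of all, and its removal left 2855 calls of total reads and 210 of allelic share, against 2953 and 218. Without G9a-Glp embryo 7 the counts were 2798 and 165. Blood markers were too low to test. Rbp4, Gata4, Dab2, Des and Pdgfra, low in G9a-Glp, could pass the filter on low counts only through Eed. Their direction was therefore partly set by the filter, and they do not stand for their lists. The marker counts are to be read against 13.4% of all genes tested called higher in G9a-Glp and 17.4% in Eed. The part of other cell types in the results was not tested.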

How the data were processed

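RNA from the ExE of single embryos was made into cDNA with SMART-Seq v4 and sequenced, per the labels' protocols. STAR 2.5.0, HTSeq and the genome mm10 are named in the submitters' processing notes. The deposited table holds, per gene and library, total read counts, an allelic ratio and an allelic score. The authors give the ratio as a fraction (paternal CAST share minus 0.5, rounded to 0.01). The score is a signed -log10 p, 0 below 10 reads. No column holds reads that could not be assigned to an allele. Whether counting used strand is not given in the sources used here. Maternal and paternal reads were recovered from count, ratio and score. The score recomputed from them, with every counted read given to 1 allele, matched 238934 of 238942 deposited scores (99.997%). The counts, and so the CPM levels, therefore hold reads assigned to an allele. A gene's level thus depends on how many of its reads could be assigned. For 1042 values, 6.18% of the reads, the alleles rest on the rounded ratio alone.

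Total reads of 8 G9a-Glp and 10 Eed libraries were tested with edgeR 4.0.16 (R 4.3.3; TMM scaling, filterByExpr, quasi-likelihood, no covariates). Allelic share was tested with a term per library and an allele-by-group term, limited to genes reaching 10 reads in 3 or more libraries per group; each allele was also tested alone. The threshold was a Benjamini-Hochberg adjusted p of 0.05. Wild type entered no test, and its position was read on log2(CPM + 1). Sex and embryo number come from the labels; the groups share embryo numbers but not embryos. The scripts were tested on simulated data. The members and lists were chosen with earlier results of these data known. Genes named are the targeted genes, the 10 largest called differences without overlap in each direction (predicted symbols left out), up to 4 called genes per list, every listed imprinted gene called and every noncanonical gene, and up to 5 unlisted allelic calls in each direction; others are said to be picked afterwards, and those whose values only complete a list count are named for that reason. Alternatives were other scaling and tools (DESeq2 1.42.0, limma 3.58.1), filters, sex, a replicate block and leaving out each embryo. Promoters are from RefSeq, and the positions of neighbouring and overlapping genes from the deposited table. Dppa3, Tbx15 and Hoxb13 promoters were not used here. A comparison of promoters between called sets is void, because 75.8% of the tested genes had an entry. One gene of the developmental list is not reported here by name.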

Additional observations from a re-analysis of the deposited data

Results flagged for a closer look

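Among 94 groups of 4 to 10 embryos examined for a single value far from the rest, 12 had one; chance alone flags about 1 in 20. In 6 of them the far value is a trace in a group that is otherwise at or near 0. These were Wdr20rt at 0.368 CPM in Eed embryo 3, Wfdc15a at 1.42 CPM in Eed embryo 10, Rln1 at 0.373 CPM in G9a-Glp embryo 7, Osr2 at 0.412 CPM in G9a-Glp embryo 4, Rspo4 at 0.550 CPM in G9a-Glp embryo 10 and Crabp1 at 6.01 CPM in G9a-Glp embryo 2. Asz1 reached 308 CPM in G9a-Glp embryo 7, where the next embryo had 240 CPM, and the same library had reads for 18423 genes against 14731 in the next. In maternal share, Dok5 was at 18.2% in G9a-Glp embryo 9, Sgpp2 at 75.0% in G9a-Glp embryo 7 where the other 3 were at 100%, and 1700095A21Rik and Gm13247, which share reads, at 46.6% and 48.1% in G9a-Glp embryo 1.

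The difference between the knockouts differed between the sexes for 7 genes (edgeR's interaction term, chosen after seeing the data; 5 and 3 embryos of G9a-Glp, 4 and 6 of Eed, females before males). The log2 fold change in females minus that in males was -2.38 for Serpine2 (adjusted p = 1.9e-06), -3.34 for Cdkn1a (0.00192), -2.41 for Btg2 (0.00286), -2.0 for Ccng1 (0.00335) and -1.35 for Psrc1 (0.0251). All 5 were highest in Eed females by median. It was 6.70 for Frem2 (adjusted p = 0.0157), where the 3 G9a-Glp males had no read and the value depends on the prior count, and 5.63 for Psmb8 (adjusted p = 0.0485), where G9a-Glp females held 0.370 to 25.0 CPM and G9a-Glp males 0 to 2.32 CPM. Frem2 was at 1.11 to 4.63 CPM in G9a-Glp females, 4.02 to 7.41 CPM in Eed females and 3.98 to 11.7 CPM in Eed males.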

How the results depend on the processing

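The 2953 calls of total reads became 1446 in males alone, 1235 with a minimum of 50 reads (5667 genes tested), 4510 with no filter (23900 tested) and 1952 with the replicate block, and ranged from 2602 to 3112 without single embryos. The 218 allelic calls became 64 in females alone, 54 in males alone, 144 with limma and 125 with the replicate block, and ranged from 158 to 217. Fewer embryos enter the settings of 1 sex, fewer genes the minimum of 50 reads and more genes the setting with no filter. The causes of the changed counts, that with limma included, were not tested. Embryos with the same number are different animals, and their deviations correlated from -0.279 to 0.0798, so the replicate block rests on a shared number alone. Among the genes named by the rule, no direction reversed; of the p53 targets named for the sex difference, Cdkn1a (-1.08 in all embryos, 0.81 in males alone) and Ccng1 (-0.22 and 0.84) did. Of the repeats of named expression differences, 1946 gave the same call, 71 lost it (31 genes, 30 of them in males alone) and 11 gained it (1 gene, Airn); of allelic ones 554 gave the same call, 32 lost it (11 genes) and 9 gained it (3 genes). Eed, Ehmt1 and Ehmt2 were called under every setting run. Depth limits low genes: most Hox and developmental transcription factor genes did not pass the filter on low counts. Without it 30 Hox genes were tested, 12 higher in Eed and none in G9a-Glp.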
